A study of Mus musculus with 4 samples.

Results

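The TGF-beta superfamily ligands are secreted signalling proteins, and 33 of their genes were followed in adult mouse hearts under pressure overload. They are the 3 TGF-beta isoforms, 10 bone morphogenetic proteins (BMPs), 11 growth differentiation factors (GDFs) counting myostatin, 5 inhibin and activin subunits, and a group of 4 made of Nodal, both Lefty proteins and anti-Müllerian hormone. The genes were taken by family membership and not by a measured value, though earlier results of these data were known when they were chosen. Each was read through the array probes designed to its RefSeq or Ensembl transcripts. All 33 had a probe, 39 probes in all, out of 21659 genes with such a probe on the array. Where a gene had several probes, the one with the brightest mean signal stood for it.

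Male mice received transverse aortic constriction (TAC), an operation that narrows the aorta and loads the left ventricle, or a sham operation, and hearts were taken 2 weeks later, in the hypertrophic response, or 8 weeks later, in the heart failure phase. The labels give no genotype, and the study's methods name C57BL/6J, the common inbred strain, without any engineered allele. The labels give an age of 10 weeks for both 2-week arrays and of 16 weeks for both 8-week arrays, whereas the methods place surgery at 12 weeks of age. Each condition was 1 single-colour array hybridised with pooled heart RNA, made by mixing 500 ng from each of 4 to 6 mice.

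Ligands of this family are made as precursors whose mature part is a disulphide-linked dimer, and they act by joining type I and type II serine/threonine kinase receptors that phosphorylate Smad proteins. TGF-beta itself is laid down in the matrix in a latent form, bound to its own propeptide and a latent TGF-beta binding protein, and must be released before it can signal. In the heart the family is known for fibroblast activation and matrix deposition (TGF-beta and activin), for valve and chamber development (BMPs) and, in the case of GDF15, for a circulating protein that rises with cell stress and acts through a receptor in the hindbrain.

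Signals are given relative to the 75th percentile of their own array, so that 1 is the signal at that percentile, and they are compared between arrays probe by probe, apart from the summed signals of marker lists. With 1 array per condition there is no spread between mice within a condition. No test was made, a fit over both times with time as an additive term included, and every difference below describes these pools. In bulk hearts, fewer cells of a type and less RNA per cell cannot be told apart. All 4 arrays came from the same slide and scan, between 54.7% and 58.5% of probes were well above background on each, and no spot was saturated. Nppa, Nppb and Myh7, classical genes of the hypertrophied ventricle, were higher after TAC by 1.84, 1.03 and 2.71 on the log2 scale at 2 weeks and by 2.65, 1.94 and 3.69 at 8 weeks, in the direction of the labels. The cardiomyocyte markers were well above background on all 4 arrays for 8 of 8 genes. As a measure of noise between spots, the SD of a log2 ratio between 2 spots of a probe was 0.18. It was taken from the 399 probes printed as 10 spots, where well above background. It leaves out dimmer probes and differences between arrays. The sham arrays differed by less than 0.47 (log2) for 95% of the 14353 genes measured on both, which includes any difference with age.

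Of the 33 ligands, 22 were well above background on all 4 arrays and 25 on at least 1. In percent this was 66.7% and 75.8%, beside 65.8% and 73.0% of all genes. The 8 that were well above background on no array were Bmp3, Bmp5, Bmp8b, Bmp15, Gdf2 (BMP9), Mstn (myostatin), Inhbc and Amh, and their levels have only an upper bound here. By the software's less strict flag, a signal positive and significant against background, 26 ligands were detected on all 4 arrays and 31 on at least 1. Bmp15 is an oocyte factor, Gdf2 and Inhbc are chiefly liver products, and Amh is a gonadal hormone. Bmp10 was well above background on the 2-week TAC array only, Gdf6 on the 8-week TAC array only, and Gdf11 on the 2-week TAC and 8-week sham arrays. The plot of signals by array shows all 33 genes.

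**Figure D1:**
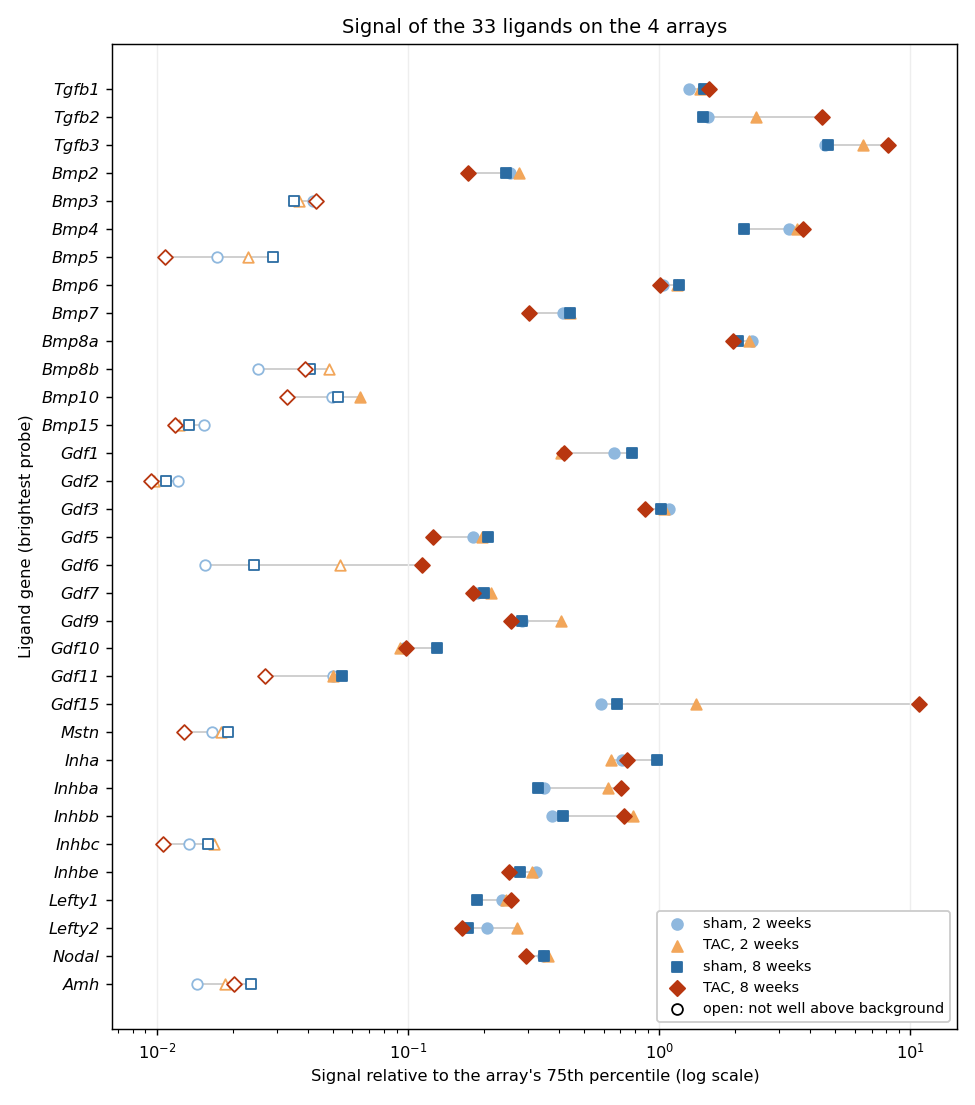
Signal of the brightest probe of each of the 33 ligands (rows) on the 4 arrays, relative to the 75th percentile of the array, on a log scale. Filled symbols are well above background and open symbols are not, and positions should be compared within a row only. Among ligands well above background on at least 1 array, Gdf15, Tgfb2, Tgfb3, Inhba, Inhbb, Gdf6, Bmp4 and Lefty1 have both TAC symbols to the right of both sham symbols. For Bmp4 and Lefty1 the gap is only 1.08-fold and 1.03-fold, and for Gdf6 a single symbol is filled. Gdf1 has both TAC symbols to the left.

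At 2 weeks, 2 of the 24 ligands well above background on either array of the pair, Gdf15 and Inhbb, were over 2-fold higher after TAC, beside 2.45% of the 15356 genes tested in the same way. None was over 2-fold lower, beside 1.22% of genes. At 8 weeks, 4 of 24 were over 2-fold higher, Gdf15, Tgfb2, Inhba and Gdf6, beside 3.31% of 15420 genes, and 1, Gdf11, was over 2-fold lower by its measured ratio, beside 2.07% of genes. Gdf6 and Gdf11 had 1 array of that pair near background, so the fold is uncertain for both. With both arrays of the pair required to be well above background, 2 of 22 ligands were higher at 2 weeks and 3 of 22 at 8 weeks, beside 0.909% and 1.83% of genes, and 0 were lower at either time, beside 0.555% and 0.878%. Between the sham arrays, 0 ligands were over 2-fold higher at 8 weeks and 0 lower, beside 1.67% and 1.04% of genes.

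The family did not move as one. Among the 22 ligands measured on all arrays the median log2 ratio of TAC to sham was 0.11 at 2 weeks, with 16 higher and 6 lower, and -0.14 at 8 weeks, with 8 higher and 14 lower. Of all genes measured on both arrays, 48.4% were higher at 2 weeks and 48.1% at 8 weeks, beside 72.7% and 36.4% of the ligands. The medians over all genes so measured were -0.01 and -0.01. The sham pair gave 0.02 for the ligands and 0.02 for all genes. With no scaling between the arrays, which shifts all genes alike, the 8-week median was 0.03 for the ligands and 0.16 for all genes. Past 1.5-fold, among the 24 ligands well above background on either array of the pair, 4 were higher and 1 lower at 2 weeks, beside 6.79% and 3.36% of genes, and 7 were higher and 3 lower at 8 weeks, beside 7.28% and 5.63%. The 8-week counts include Gdf6 and Gdf11. Across the sham arrays, of 23 such ligands, 0 were higher past 1.5-fold and 1, Bmp4, was lower, beside 3.8% and 2.32%.

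**Figure D2:**
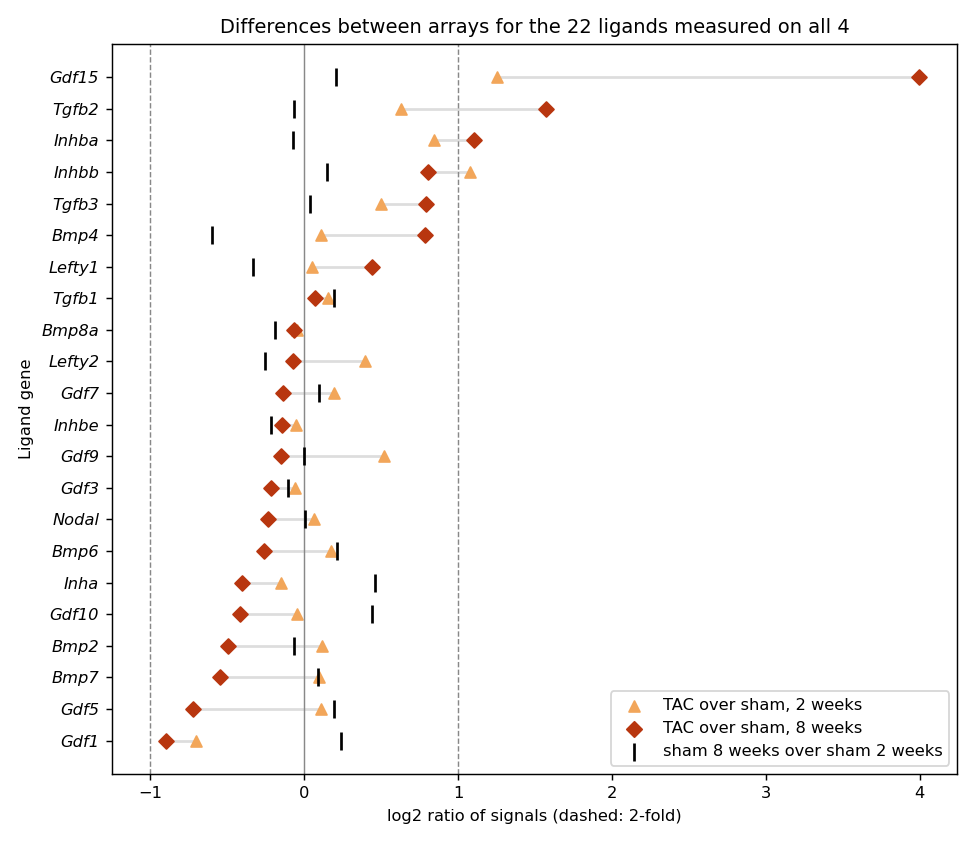
log2 ratio of TAC to sham signal at 2 weeks (triangles) and 8 weeks (diamonds), and of the 8-week to the 2-week sham array (black bars), for the 22 ligands measured on all 4 arrays, ordered by the 8-week ratio. Dashed lines mark 2-fold. Gdf15 lies at 3.996 at 8 weeks, far beyond Tgfb2 at 1.57, and most other ligands lie within the dashed lines.

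Among the 3 TGF-beta isoforms, the ligands that act through Tgfbr1 and Tgfbr2, Tgfb2 and Tgfb3 were higher after TAC and Tgfb1 was close to sham. Tgfb2 read 1.57 in sham and 2.43 in TAC at 2 weeks, and 1.49 in sham and 4.43 in TAC at 8 weeks. Both TAC arrays were above both sham arrays, and the higher of the pair was the later one. The TAC to sham ratio was 1.55-fold at 2 weeks and 2.97-fold at 8 weeks, or 0.63 and 1.57 on the log2 scale, while the shams differed by -0.07. The dimmer probe of Tgfb2 read 0.551 and 0.714 at 2 weeks and 0.553 and 1.17 at 8 weeks, for log2 ratios of 0.37 and 1.08 in the same order, and the mean ratio of both probes at 2 weeks, 0.50, was below 1.5-fold. Among all genes measured on both arrays, the 8-week ratio of Tgfb2 ranked 89 of 14574. Across the alternative ways of processing described below, its log2 value ran from 1.33 to 1.74.

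Tgfb3 read 4.57 in sham and 6.47 in TAC at 2 weeks, and 4.70 in sham and 8.15 in TAC at 8 weeks. The log2 ratio was 0.50 at 2 weeks and 0.79 at 8 weeks, or 1.42-fold and 1.73-fold, beside 0.04 between the shams. Its probe was printed as 10 spots, of which 9, 7, 10 and 10 passed the outlier flags on the sham and TAC arrays at 2 weeks and the sham and TAC arrays at 8 weeks. The TAC spots ran from 6.20 to 6.65 at 2 weeks and from 7.53 to 8.62 at 8 weeks, and the sham spots from 4.21 to 4.75 and from 4.38 to 5.08. The spot ranges of TAC and sham did not overlap at either time. The standard error of the log2 ratio over spots was 0.026 at 2 weeks and 0.030 at 8 weeks. It covers noise between spots within an array, and not differences between arrays, their scaling or mice. Across the alternative ways of processing, the 8-week log2 ratio of Tgfb3 ran from 0.77 to 0.96.

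Tgfb1, the isoform most often studied in fibrosis, read 1.31 in sham and 1.46 in TAC at 2 weeks, and 1.5 in sham and 1.58 in TAC at 8 weeks. Its log2 ratio was 0.15 at 2 weeks, with a standard error over the 10 spots of 0.035, and 0.071 at 8 weeks, with 0.037. The shams differed by 0.20, more than either TAC and sham pair, and the spot ranges of TAC and sham overlapped at both times. The plot of single spots shows Tgfb1 and Tgfb3 side by side.

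**Figure D3:**
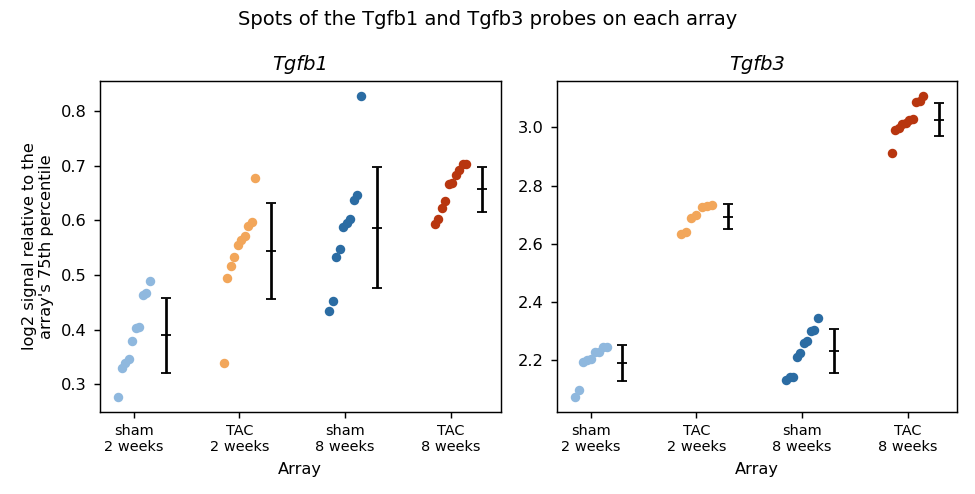
log2 signal of every usable spot of the Tgfb1 probe (left) and the Tgfb3 probe (right) on the 4 arrays, with the mean and SD over spots as black bars. Spots are drawn in order of value and the panels have separate axes. The Tgfb3 spots of each TAC array lie clear of the sham spots, and the Tgfb1 spots overlap between TAC and sham.

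GDF15, a divergent family member that signals through GFRAL and RET, had the widest range of the 33. Gdf15 read 0.587 in sham and 1.40 in TAC at 2 weeks, and 0.679 in sham and 10.8 in TAC at 8 weeks. The shams were alike, the 2-week TAC array lay above both, and the 8-week TAC array was far above all others. The ratio of TAC to sham was 2.38-fold at 2 weeks and 15.95-fold at 8 weeks, or 1.25 and 4.0 on the log2 scale, beside 0.21 between the shams. From the 2-week to the 8-week TAC array the signal was 7.75-fold higher. The ratio ranked 67 of 14417 genes at 2 weeks and 2 of 14574 at 8 weeks. With the normexp background correction it was 0.97 at 2 weeks, just short of 2-fold, and 3.50 at 8 weeks. That correction also adds 50 to every signal, which brings the ratios of dim probes toward no difference. The receptor gene of GDF15, Gfral, was not well above background on any array.

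The activin subunits Inhba and Inhbb also differed between TAC and sham, while the inhibin alpha subunit differed less and in the other direction. Inhba, whose product forms activin A, read 0.347 in sham and 0.623 in TAC at 2 weeks, and 0.329 in sham and 0.706 in TAC at 8 weeks. Inhbb, the subunit of activin B, read 0.373 in sham and 0.787 in TAC at 2 weeks, and 0.414 in sham and 0.721 in TAC at 8 weeks. For both genes each TAC array was above each sham array, by at least 1.80-fold for Inhba and 1.74-fold for Inhbb. The log2 ratio of Inhba was 0.85 at 2 weeks and 1.10 at 8 weeks, and that of Inhbb 1.08 and 0.80, with -0.07 and 0.15 between the shams. So the larger ratio fell at 8 weeks for Inhba and at 2 weeks for Inhbb, by differences of 0.26 and -0.28 that have no replicate check. Under normexp neither passed 2-fold, with 0.57 and 0.68 for Inhba and 0.58 and 0.52 for Inhbb.

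Inha, which pairs with a beta subunit to make inhibin, an activin antagonist, read 0.714 in sham and 0.643 in TAC at 2 weeks, and 0.981 in sham and 0.742 in TAC at 8 weeks. Its log2 ratios of -0.15 and -0.40 were no larger than the 0.46 between the shams. Inhbe, another activin subunit and a hepatokine gene, read 0.324, 0.312, 0.279 and 0.252 on the sham and TAC arrays at 2 weeks and the sham and TAC arrays at 8 weeks, the order used for all sets of 4 values below. Its TAC arrays were within 0.15 (log2) of their shams, with ratios of -0.05 and -0.14, smaller than those of Inha.

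The promoter windows of the 4 ligands that were over 2-fold higher after TAC at either time, with both arrays of that pair well above background, are given so that their starts can be set side by side. They come from the RefSeq table of GRCm38.p6, not the mm9 build of the array design, and run from 250 bases before to 50 bases after the start of the transcript that the probe was named by. Each is written 5′ to 3′ on the strand of the gene, with matches to the motifs searched in capitals. The windows are chr1:186705940-186706239 (minus strand) for Tgfb2, chr8:70632046-70632345 (minus) for Gdf15, chr13:16011601-16011900 (plus) for Inhba and chr1:119422199-119422498 (minus) for Inhbb.
Tgfb2: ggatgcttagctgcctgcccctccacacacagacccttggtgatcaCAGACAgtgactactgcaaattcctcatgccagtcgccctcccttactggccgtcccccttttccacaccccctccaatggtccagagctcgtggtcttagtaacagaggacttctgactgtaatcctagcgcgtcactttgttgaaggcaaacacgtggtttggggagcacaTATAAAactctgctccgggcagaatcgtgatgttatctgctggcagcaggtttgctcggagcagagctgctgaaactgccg
Gdf15: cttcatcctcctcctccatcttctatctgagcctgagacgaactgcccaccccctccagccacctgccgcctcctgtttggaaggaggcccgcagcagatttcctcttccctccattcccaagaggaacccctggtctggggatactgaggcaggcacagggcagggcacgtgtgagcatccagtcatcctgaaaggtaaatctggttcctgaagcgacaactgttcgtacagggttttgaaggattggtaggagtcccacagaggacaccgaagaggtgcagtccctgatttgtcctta
Inhba: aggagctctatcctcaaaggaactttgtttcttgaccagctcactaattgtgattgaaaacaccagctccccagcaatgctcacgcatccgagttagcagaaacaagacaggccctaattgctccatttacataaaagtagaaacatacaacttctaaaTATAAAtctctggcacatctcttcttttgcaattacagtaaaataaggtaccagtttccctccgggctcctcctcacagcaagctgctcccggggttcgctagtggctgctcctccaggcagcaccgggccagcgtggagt
Inhbb: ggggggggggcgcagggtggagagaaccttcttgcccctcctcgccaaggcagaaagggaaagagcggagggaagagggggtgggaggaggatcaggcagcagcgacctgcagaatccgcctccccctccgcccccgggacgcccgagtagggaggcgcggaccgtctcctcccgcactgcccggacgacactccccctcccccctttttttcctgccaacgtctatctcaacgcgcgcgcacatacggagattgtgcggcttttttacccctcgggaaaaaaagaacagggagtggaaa

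The motifs searched on both strands were the Smad element CAGACA, the AP-1 site TGANTCA, the cyclic AMP response element TGACGTCA, the C/EBP-ATF response element TGATGNAA, the TATA box TATAAA and the CArG box. Counting the first transcribed base as 0, the Tgfb2 window held TATAAA at -31 to -26 and CAGACA at -204 to -199, and the Inhba window held TATAAA at -91 to -86. The Gdf15 and Inhbb windows held none of these letters. Of all 32851 promoter windows in the table, 21% held CAGACA, 13.6% TATAAA, 7.81% TGANTCA, 3.97% TGATGNAA, 1.79% TGACGTCA and 1.63% a CArG box. Of the 24 windows of the 22 ligands matched, 5 held CAGACA, 6 TATAAA, 1 TGANTCA and 2 TGATGNAA. The share of G and C was 54.3% for Tgfb2, 56.0% for Gdf15, 47.7% for Inhba and 64.3% for Inhbb, beside a median of 52.7%, and the Inhbb window held 23 CpG dinucleotides beside a median of 7. No motif of those searched was therefore present in all 4 windows, and TATAAA was in those of Tgfb2 and Inhba. A match is a description of letters and not of a bound site.

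Of the 10 BMP ligands 5 were measured on all arrays, and Bmp4 was the 1 past 1.5-fold. Bmp4, a BMP of vessel and heart development, read 3.29 in sham and 3.55 in TAC at 2 weeks, and 2.17 in sham and 3.75 in TAC at 8 weeks. The 8-week sham array stood lowest, and the other 3 were close together. The ratio of TAC to sham was 1.08-fold at 2 weeks and 1.73-fold at 8 weeks, or 0.11 and 0.79 on the log2 scale, and the shams themselves differed by -0.60. Against the 2-week sham array the 8-week TAC array was 1.14-fold higher. Its other probe was not well above background on any array. Across the alternative ways of processing, the 8-week log2 ratio of Bmp4 ran from 0.67 to 0.95.

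Bmp2, Bmp7 and Bmp6 were lower at 8 weeks without passing 1.5-fold. Bmp2, known for its part in valve formation, read 0.255, 0.277, 0.244 and 0.174, which puts TAC over sham at 0.12 (log2, 2 weeks) and -0.49 (8 weeks). Bmp7, an osteogenic and renal BMP, read 0.414, 0.442, 0.442 and 0.302, for 0.09 and -0.55. For both genes the first 3 arrays were alike and the 8-week TAC array was the lowest. Bmp6, which controls hepcidin in the liver, read 1.04, 1.17, 1.20 and 1.0, for 0.17 and -0.26, and its arrays were close together. Bmp8a read 2.35, 2.27, 2.06 and 1.97, for -0.05 and -0.07. Bmp8a and Bmp8b are close paralogues, and with no probe sequence in the files their signals may not be fully separate.

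Bmp10, a ligand of the atrial wall, read 0.050 and 0.064 at 2 weeks and 0.053 and 0.033 at 8 weeks, and only 0.064 was well above background. The atrial markers differed among themselves. Myl7 read 0.049, 0.078, 0.170 and 0.030 and Sln 0.077, 0.093, 0.120 and 0.035, both highest on the 8-week sham array and lowest on the 8-week TAC array. Myl4 read 3.08, 3.06, 3.85 and 2.69 in the same order of extremes. The log2 ratios at 2 and 8 weeks were -0.71 and -0.93 for Tbx5, 0.30 and 0.41 for Kcna5, and 1.84 and 2.65 for Nppa, which the loaded ventricle also makes. Upk3b was not well above background on any array. The part of atrial tissue in any ligand's difference was not tested.

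Of the 11 GDF genes 7 were measured on all arrays, and beside Gdf15 those past 1.5-fold were Gdf1 and Gdf5, both lower. Gdf1, a Nodal partner in left-right patterning, read 0.660 in sham and 0.405 in TAC at 2 weeks, and 0.778 in sham and 0.417 in TAC at 8 weeks. Both TAC arrays were below both shams, by at least 1.58-fold. The log2 ratios were -0.70 and -0.90, or 1.63-fold and 1.86-fold lower, beside 0.24 between the shams. The dimmer Gdf1 probe, designed to another transcript, read 0.082, 0.050, 0.086 and 0.086, and the 2-week TAC array was not well above background. By its measured signals it was 1.63-fold lower at 2 weeks, and 0.01 (log2) from sham at 8 weeks, where the probes disagreed. Gdf1 shares its transcript with the ceramide synthase gene Cers1, so the gene behind the signal is uncertain. Under normexp the brighter probe gave -0.44 at 2 weeks and -0.59 at 8 weeks.

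Gdf5, a joint morphogen, read 0.182 in sham and 0.196 in TAC at 2 weeks, and 0.208 in sham and 0.126 in TAC at 8 weeks. The 8-week TAC array stood lowest, and the log2 ratios were 0.11 and -0.72, beside 0.19 between the shams. Its other probe gave 0.50 at 2 weeks and -0.69 at 8 weeks, with 0.50 between the shams, so both probes were lower in TAC at 8 weeks by a similar amount. Under normexp the brighter probe gave -0.42, short of 1.5-fold. Gdf6, its close relative, read 0.016 and 0.053 at 2 weeks and 0.024 and 0.114 at 8 weeks, and only the last was well above background. At 8 weeks its measured ratio of TAC to sham was 4.67. Against the dimmest signal that passed the flag on the sham array, it was 2.15-fold higher. Gdf11 read 0.050, 0.050, 0.055 and 0.027, and at 8 weeks was 2.03-fold lower by its measured ratio. It was 1.17-fold lower against the dimmest signal that passed on the TAC array.

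The remaining GDF genes did not pass 1.5-fold. Gdf9, an oocyte factor, read 0.284, 0.407, 0.284 and 0.256, with the 2-week TAC array above 3 arrays that were alike, for log2 ratios of 0.52 and -0.15. Gdf10 (BMP3b) read 0.096, 0.093, 0.130 and 0.098, so that the 8-week sham array was the one apart. Gdf3 read 1.09, 1.05, 1.02 and 0.875 and Gdf7 0.188, 0.214, 0.200 and 0.182, both within 0.22 (log2) of sham. The second probes of Gdf3 and Gdf7 were not well above background on any array.

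Nodal and both Lefty genes, which act in left-right patterning as Gdf1 does, did not pass 1.5-fold. Nodal read 0.346, 0.362, 0.347 and 0.295. Lefty1, a Nodal antagonist, read 0.237, 0.245, 0.189 and 0.256, for log2 ratios of 0.05 and 0.44, with -0.33 between the shams. Lefty2 read 0.206, 0.272, 0.173 and 0.164, for 0.40 and -0.07. Lefty1 and Lefty2 are nearly identical genes and are uncertain as separate measurements.

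The other genes of the pathway were counted in 5 lists by the same fold, beside the shares of all genes above. The lists were chosen with earlier results of these data known, so their counts are descriptions only. Of 15 receptors and co-receptors, 12 were measured on all arrays and 0 passed 2-fold in either direction at either time, with log2 ratios from -0.26 to 0.22 at 2 weeks and from -0.41 to 0.68 at 8 weeks. Their medians were -0.04 and -0.02. The top of the 8-week range was Tgfbr1, the type I receptor of TGF-beta, which read 1.0, 1.13, 0.90 and 1.44. Of 8 Smads, 7 were measured and 0 passed, with log2 ratios from -0.20 to 0.88 at 2 weeks and from -0.31 to 0.42 at 8 weeks and medians of 0.09 and -0.03. The top of both ranges was Smad1, a BMP receptor substrate, which read 0.152, 0.281, 0.212 and 0.284, with 0.48 between its shams.

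The genes that hold, store or release latent TGF-beta included Ltbp2, the largest ratio of the 5 lists. Of 12, 11 were measured, 2 were over 2-fold higher at 2 weeks and 3 at 8 weeks, 0 were lower, and the medians were 0.38 and 0.22. Ltbp2, a latent TGF-beta binding protein of elastic fibres that does not itself bind latent TGF-beta, read 0.715, 4.53, 1.04 and 11.6, for log2 ratios of 2.66 and 3.48. Thbs1, which encodes the TGF-beta activator thrombospondin 1, read 0.181, 0.714, 0.398 and 1.61, for 1.98 and 2.01, and its shams differed by 1.14. Fbn1, the fibrillin to which latent complexes attach, read 2.60, 5.12, 2.61 and 5.67, for 0.98 and 1.12. In all 3 genes both TAC arrays were above both shams.

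Of 20 secreted and membrane antagonists, 12 were measured, 2 were over 2-fold higher at 2 weeks and 3 at 8 weeks, and 0 were lower, with medians of 0.11 and -0.10. Fstl3, a follistatin-like protein that binds activin and myostatin, read 0.999, 2.61, 1.09 and 3.37, for log2 ratios of 1.39 and 1.63. Fstl1 read 12.7, 29.3, 11.6 and 28.8, for 1.20 and 1.31, and Nbl1, a BMP antagonist, 6.74, 11.1, 6.5 and 13.2, for 0.72 and 1.02. Fst, the gene of follistatin, had -0.24 and -0.31, both smaller than the 0.42 between its shams. Bmper, another BMP-binding protein, had the lowest ratios of the list at -0.44 and -0.97.

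Of 16 known target genes, 15 were measured, 2 were over 2-fold higher at 2 weeks and 3 at 8 weeks, and 0 were over 2-fold lower. The medians were 0.34 and 0.44. By direction alone, 12 were higher and 3 lower at 2 weeks, and 13 were higher and 2 lower at 8 weeks, so the list was not uniform. Postn, the matricellular protein periostin, read 1.21, 5.95, 1.25 and 9.50, for log2 ratios of 2.29 and 2.92. Ccn2, the connective tissue growth factor gene, read 11.6, 20.7, 11.1 and 49.1, for 0.84 and 2.15. Col1a1 gave 0.97 and 1.20 and Fn1 1.10 and 0.65. The BMP targets of the list, Id1, Id2, Id3, Smad6 and Smad7, lay between -0.20 and 0.34 at 2 weeks and between -0.03 and 0.29 at 8 weeks.

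**Figure D4:**
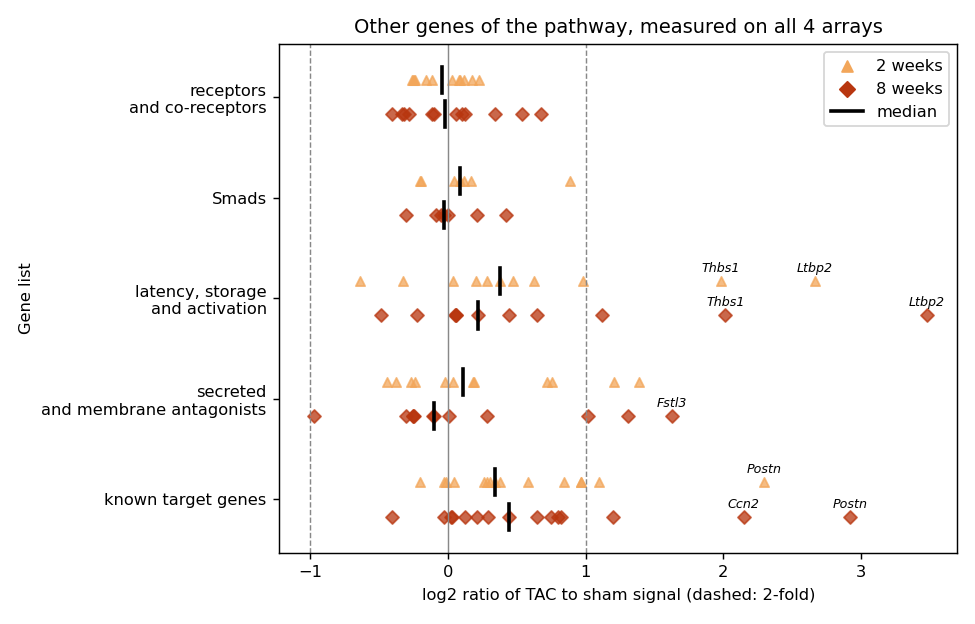
log2 ratio of TAC to sham signal at 2 weeks (triangles) and 8 weeks (diamonds) for the pathway genes measured on all 4 arrays, in 5 lists, with the median of each list as a black bar and dashed lines at 2-fold. Genes past 1.5 (log2) are named. Receptors and Smads stay within the dashed lines, and the other lists have 2 or 3 genes beyond the upper line at each time.

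Most markers of several cell types, fibroblasts and macrophages among them, were higher in the same TAC arrays as Gdf15, Tgfb2, Tgfb3, Inhba and Inhbb. The fibroblast markers, 8 of 8 measured, were higher after TAC for 8 genes at 2 weeks and 7 at 8 weeks, with medians of 0.89 and 0.85 (log2) and summed signals of 208, 287, 232 and 339, of which the Dcn probe alone gave 143, 162, 167 and 203, and that list shares Postn, Col1a1 and Col3a1 with the target list. Within the fibroblast list, Tcf21 gave log2 ratios of 0.07 and -0.55, Dcn 0.18 and 0.28 and Pdgfra 0.31 and 0.40. Postn, the collagens and Lum had larger ratios than these at both times. The macrophage markers were higher for 7 of 7 at both times, with medians of 0.44 and 0.40. Their summed signals were 34.6, 43.7, 35.7 and 45.5, of which the Csf1r probe alone gave 27.0, 33.1, 27.1 and 33.7. The cardiomyocyte markers had medians of -0.17 and -0.18. The endothelial markers had medians of 0.19 and 0.01. The smooth muscle and mural markers had 0.32 and 0.15, with 5 of 6 genes higher at both times. The 3 epicardial and mesothelial markers measured on both arrays had medians of 0.56 and 0.36. Of these, 3 were higher at 2 weeks, and 2 were higher and 1 lower at 8 weeks. The part of cell composition in the difference of any ligand was not tested.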

How the data were processed

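RNA of 4 pools was measured on 1 single-colour Agilent 8x60K mouse array each (design on mm9). The deposited signal intensity is that of the authors' Feature Extraction output, background-subtracted and spatially detrended by that software (version 10.7.3.1 in the file headers, 9.1 in the submitters' processing notes), and the authors used GeneSpring GX11. The deposited series table, also intensity, equals the processed signal times 1 constant per array (4.26, 4.35, 4.0 and 3.52 for sham and TAC at 2 weeks and sham and TAC at 8 weeks, with column medians of 101.2, 106.3, 103.7 and 97.2). It is linear and not centred on genes, and how its constants were set stays unknown.

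Spots flagged as outliers were dropped, the log2 processed signals of the spots of a probe averaged, and the 75th percentile over the 55681 non-control probes of the array subtracted. Those percentiles were 206, 206, 221 and 248 in signal, and the number of arrays limits the precision. Of 32342 probes named by a transcript, 29359 matched 1 gene of the reference tables and 2983 none. A difference was called past 2-fold with the brighter array well above background (a software flag). Where the dimmer array was not, a smaller fold was also given for Gdf6 and Gdf11. It divides the bright signal by the dimmest signal that passed the flag on the dimmer array. Brighter signals could fail the flag, so this fold is not a strict lower limit. On the 8-week sham array, Itga2b failed at 0.0635, where the dimmest passing signal was 0.053. Samples were grouped by their labels, and the script was tested on simulated data. Tools were Python 3.11.15, pandas 2.3.3, R 4.3.3 and limma 3.58.1. The members and lists were chosen with earlier results of these data known. Every ligand well above background on an array was named with its values, those past 1.5-fold with other probes and alternatives, and of each pathway list the genes past 2-fold, at most 5. Genes named beyond that rule (Tgfbr1, Smad1, Gfral, Fst, Bmper, the targets of BMPs and the single fibroblast markers) were chosen after their values were seen. Marker lists also covered lymphocyte, epicardial, fat, erythroid, platelet and skeletal muscle genes. A gene of the target list is not reported here.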

Additional observations from a re-analysis of the deposited data

How the results depend on the processing

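No replicate block was fitted, since the labels number no replicates and each condition was 1 array. The ratios rest on 1 pool each, so they carry no spread between mice, and those of dim ligands are uncertain in size. The median of all genes moved by 0.17 (log2) at 8 weeks when arrays were not scaled. Over the 22 ligands, the 3 pairs of arrays and the 7 alternatives for single ratios, 19 of 462 ratios moved by more than 0.18 and 20 changed sign, the largest of which was 0.15 in size as reported. Of the 20, 8 came with no scaling and 4 with scaling to the median, which shift all genes alike. Of the 19, 16 came under normexp background correction and 3 with the mean over the probes of a gene. Normexp was run with an offset of 50 added to every signal, beside 75th percentiles of 206 to 248. Such a constant brings the ratios of dim probes toward no difference. The cause of single moves was not tested.

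Counts moved as follows. With normexp, 0 ligands were over 2-fold higher at 2 weeks in place of 2, and 2 at 8 weeks in place of 4, Gdf15 and Tgfb2. The 1 ligand over 2-fold lower at 8 weeks, Gdf11, became 0 with quantile normalization, with arrays scaled to their median, with no normalization between arrays, with normexp, and when both arrays had to be well above background. With a fold threshold of 1.5 there were 4 higher and 1 lower at 2 weeks, 7 higher and 3 lower at 8 weeks, and 1 lower between the shams. The other counts and medians, 67 of 79, stayed within 1.5 times or within 0.18 of the reported value.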

Other observations

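Further marker lists are given as values, and of these only the epicardial and mesothelial one was set beside the ligands above. The lymphocyte markers had median log2 ratios of TAC to sham of -0.04 at 2 weeks and -0.16 at 8 weeks over those measured on both arrays, the fat markers -0.42 and -0.01, the erythroid markers -0.28 and 0.08, the platelet markers -0.17 and -0.03, and the skeletal muscle markers 0.22 and 0.07. The epicardial and mesothelial markers had medians of 0.56 and 0.36, and of their 6 genes Wt1, Msln and Tbx18 were well above background on all 4 arrays. Adipoq, Plin1, Lep and Ucp1, which define fat, were not well above background on any array. Of the skeletal muscle list Mylpf and Myh4 were not either, while Acta1, which the stressed ventricle also makes, had 3.09 and 3.41.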
